A study of Mus musculus with 34 samples.

Results

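The Cyp2 and Cyp3a genes encode the cytochrome P450 enzymes with which the liver oxidizes drugs, steroids, fatty acids and other small molecules. They were taken by name, as genes of the Cyp2 family with a subfamily letter and number or of the Cyp3a subfamily, without pseudogenes and without Cyp2e1. Of 57 such names among the 78298 genes of the table, 35 had at least 10 counts in at least 4 of the 34 libraries and are described here. The remaining 22 were below this level. The 35 comprise 13 Cyp2c, 6 Cyp2d, 4 Cyp2a, 4 Cyp3a and 3 Cyp2j genes, with Cyp2b, Cyp2f, Cyp2r, Cyp2s and Cyp2u represented by 1 gene each.

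RNA was sequenced from liver tissue of male mice of C57/Bl6 background, aged 8 to 12 weeks, collected untreated (0 hours) or at 6 or 24 hours after partial hepatectomy (PHx), the surgical removal of the left lateral and median lobes. SIRT1intKO mice carry a Villin-driven Cre recombinase and a floxed Sirt1 gene, which removes Sirt1 from intestinal epithelial cells while the liver keeps the gene. The floxed allele came from a stock of mixed B6 and 129 origin. The WT mice also carry loxP-flanked Sirt1 but lack the Cre, and the groups held 6, 6 and 4 WT and 6, 5 and 7 SIRT1intKO livers at 0, 6 and 24 hours. The study used these livers to ask how loss of intestinal SIRT1 alters the response of the liver to PHx. Each library is a labelled biological replicate. The 0-hour libraries carry numbers in a series of their own, and any separate handling of those livers cannot be told apart from the effect of PHx.

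P450 enzymes sit in the endoplasmic reticulum, bind haem, and receive electrons from P450 oxidoreductase (Por) and in part from cytochrome b5. Many Cyp2b, Cyp2c and Cyp3a genes are induced through the nuclear receptors CAR (Nr1i3) and PXR (Nr1i2), which sense foreign compounds and bile acids. Their basal level depends on hepatocyte factors such as HNF4A and C/EBP, on the zone of the liver lobule, and in rodents on sex through the pattern of growth hormone release.

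Several members are near copies of each other, which bears on how far their reads can be told apart. In the GENCODE vM21 transcripts, coding sequences of the same length were 98.4% identical for Cyp2a4 and Cyp2a5, 97.5% for Cyp3a25 and Cyp3a59, 97% for Cyp2a12 and Cyp2a22, and 96.1% for Cyp2c37 and Cyp2c50, while Cyp2c29 and Cyp2c37 were 83% identical. Of 34 members with a complete coding transcript, 16 had no stretch of 100 bases, the length of a read, in common with another Cyp2 or Cyp3a gene. In 7 members more than 10% of the stretches were shared, led by Cyp2c40 (44.1%) and Cyp2c69 (36.3%). The bases that encode the loop around the haem-binding cysteine are shown for the 3 Cyp2c genes that fell most. Capitals mark the 5 of 78 positions at which the 3 are not all alike, and positions count from the first base of the start codon (1258 to 1335).
Cyp2c37: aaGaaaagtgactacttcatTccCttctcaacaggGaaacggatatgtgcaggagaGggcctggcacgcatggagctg
Cyp2c50: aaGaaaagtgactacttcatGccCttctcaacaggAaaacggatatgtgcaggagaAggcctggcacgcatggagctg
Cyp2c54: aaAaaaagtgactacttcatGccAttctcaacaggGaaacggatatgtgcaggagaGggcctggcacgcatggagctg

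Promoters were read from the RefSeq table of build GRCm38.p6, as the 250 bases before each annotated start. Of the 35 members, 30 have an entry, and Cyp2c23, Cyp2c54, Cyp2d13, Cyp2d22 and Cyp2u1 have none. The HNF4 site CAAAGTCCA was in 6 of the 30 on either strand (20%), against 0.451% of the 27025 genes in the table. The 6 are Cyp2c40, Cyp2c67, Cyp2c68, Cyp2c69, Cyp2c70 and Cyp3a11, of which the first 4 are close relatives. The C/EBP site TTGCNNAA was in 8 members (26.7%) against 10.8% of all genes, and it overlapped no HNF4 site. The STAT site TTCNNNGAA, present in 8.13% of all genes, was in 0 members, as were the D-box (TTATGTAA or TTACGTAA, 1.1% of all genes) and the DR4 element (0.0259%), which is bound by nuclear receptors and was searched as AGGTCA or AGTTCA repeats spaced by 4 bases. These are letter matches in a short window. The 150 bases before the start are shown for the Cyp3a gene that differed between the genotypes, for Cyp2c70, for 2 of the Cyp2c genes that fell most and for Cyp2b10, which rose. Capitals mark the HNF4 site in Cyp3a11 and Cyp2c70 and the C/EBP site in Cyp2c37 and Cyp2b10, and Cyp2c50 held neither.
Cyp3a11 (chr5:145879855-145880004, minus strand): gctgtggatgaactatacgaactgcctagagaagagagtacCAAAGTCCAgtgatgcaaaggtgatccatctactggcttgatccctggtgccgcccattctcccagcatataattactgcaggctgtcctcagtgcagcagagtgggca
Cyp2c70 (chr19:40187287-40187436, minus strand): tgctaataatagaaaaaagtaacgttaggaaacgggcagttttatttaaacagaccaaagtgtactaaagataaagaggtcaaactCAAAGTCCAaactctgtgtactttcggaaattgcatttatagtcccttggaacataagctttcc
Cyp2c37 (chr19:39992274-39992423, plus strand): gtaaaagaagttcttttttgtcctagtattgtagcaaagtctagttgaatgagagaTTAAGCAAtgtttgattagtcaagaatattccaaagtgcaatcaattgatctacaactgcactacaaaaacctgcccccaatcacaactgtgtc
Cyp2c50 (chr19:40089529-40089678, plus strand): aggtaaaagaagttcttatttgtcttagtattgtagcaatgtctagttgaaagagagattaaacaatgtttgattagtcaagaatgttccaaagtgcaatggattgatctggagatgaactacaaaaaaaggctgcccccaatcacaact
Cyp2b10 (chr7:25897508-25897657, plus strand): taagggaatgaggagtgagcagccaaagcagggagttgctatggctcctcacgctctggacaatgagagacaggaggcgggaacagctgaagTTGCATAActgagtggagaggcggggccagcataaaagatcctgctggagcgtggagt

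The libraries held 14892122 to 23480492 counts each (median 16807340). Levels are given as CPM, counts scaled to a common library total with TMM factors. They are not divided by gene length and serve to compare 1 gene, or 1 sum of genes, between libraries. A gene was called when its edgeR adjusted p was under 0.05 and its fold change over 1 in size on the log2 scale, and 14980 genes, all 35 members among them, were tested. Changes over time and differences between genotypes are log2 fold changes throughout. The hepatocyte genes Alb, Ttr, Apoa1, Apoh, Serpina1b, Ahsg and Tat summed to between 42255 and 88774 CPM over all libraries, so these defining genes of the labelled tissue were abundant in every one. In bulk liver, fewer hepatocytes and less RNA per hepatocyte cannot be told apart. In a principal component analysis of the genes that varied most between libraries, 3 libraries lay apart from their groups. They were WT 24-hour replicates 3 and 4 and SIRT1intKO 24-hour replicate 5, which carry neighbouring library numbers in the labels. Their first component was -2.4, 3.9 and -10.6, against -51.8 to -29.3 in the other 24-hour libraries, -21.9 to -4.8 at 6 hours and 29.3 to 49.8 at 0 hours. The second was 3.8, 4.5 and -3.1, against -24.7 to -8.1 in the other 24-hour libraries, 7.5 to 23.9 at 6 hours and -8.7 to -0.6 at 0 hours. As these 2 WT libraries are 2 of 4, counts and selected values at 24 hours are also given without the 3 libraries, a choice made after seeing the data. Leaving them out moved the change from 0 to 24 hours by over 1.5-fold in 19 of the 35 members in WT and in 3 in SIRT1intKO livers. Without them the WT 24-hour group holds 2 livers.

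After PHx most members lay lower than at 0 hours, while Cyp2b10 rose. In WT livers at 6 hours, 9 of the 35 members were called lower and 1 higher, where 8.4% and 7.17% of all tested genes were called lower and higher. In SIRT1intKO livers the counts were 5 lower and 1 higher, against 8.7% and 7.86% of all genes. At 24 hours, 17 members were called lower and 1 higher in WT livers (all genes 7.4% and 8.32%). Of the members in SIRT1intKO livers, 16 were lower and 3 higher (all genes 11.1% and 11.9%). The members called lower were thus 25.7%, 14.3%, 48.6% and 45.7% of the 35 in these 4 changes. The median log2 fold change of the members was -0.68 and -0.64 at 6 hours and -1.09 and -0.92 at 24 hours in WT and SIRT1intKO livers, while the medians of all tested genes were 0.02, 0.01, 0.02 and 0.04. Summed over the 35 members, WT livers ranged from 9839 to 15358 CPM (median 13636, n = 6) at 0 hours and from 4446 to 8941 CPM (median 7525, n = 6) at 6 hours, and the 4 livers at 24 hours had 3498, 3109, 7628 and 6783 CPM. In SIRT1intKO livers the sums ranged from 10987 to 15139 CPM (median 13377, n = 6) at 0 hours, were 6566, 7523, 8979.9, 9059.7 and 6819 CPM at 6 hours, and ranged from 4908 to 10560.3 CPM (median 7423, n = 7) at 24 hours. The ranges at 6 hours lay below those at 0 hours in both genotypes.

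The 2 genotypes shared part of these calls. Of the 9 members called lower at 6 hours in WT and the 5 in SIRT1intKO livers, 2 were the same, Cyp2d13 and Cyp2u1, which are 22.2% and 40% of each list. Over all genes, 73.8% and 71.2% of those called lower at 6 hours were called in the other genotype too. When the 3 libraries apart were left out, 10 and 8 members were called lower and 5 were the same, 50% and 62.5%. The shares over all genes were then 74.6% and 69.3%. Estimates at 6 hours over all libraries were below 0 for 29 members in WT and 31 in SIRT1intKO livers. The interaction at that time had a median of 0.06 over the members, with 0 called (all genes 0%). Some calls differed at the threshold, as for Cyp2f2 at -0.99 in WT and -1.01 in SIRT1intKO livers, called in the latter alone. At 24 hours 12 were called lower in both, 70.6% of the 17 in WT and 75% of the 16 in SIRT1intKO livers, where the shares over all genes were 75.1% and 50.2%. In the fit without the 3 libraries, 15 were the same at 24 hours, 68.2% of 22 and 88.2% of 17. Over all genes that fit gave 55.3% and 77%. Cyp2d13 and Cyp2u1 were called lower, and Cyp2b10 higher, in all 4 changes from 0 hours. Between 6 and 24 hours, 3 members were called lower and 0 higher in WT livers (all genes 2.72% and 4.44%), and 11 lower and 3 higher in SIRT1intKO livers (all genes 3.91% and 6.7%). With the 3 libraries left out, the counts called at 24 hours against 0 hours were 22 lower and 0 higher in WT livers and 17 lower and 3 higher in SIRT1intKO livers, and 15 members were called lower between 6 and 24 hours in WT livers. Of all genes, 30.9%, 26% and 19% were then called in these comparisons, counting higher and lower calls together. In WT livers the 3 calls between 6 and 24 hours rested on few livers. Leaving out WT 24-hour replicate 1 or replicate 2 gave 0 calls, and leaving out WT 6-hour replicate 1 or replicate 6 gave 1. Leaving out WT 0-hour replicate 2 raised the calls in WT livers at 6 hours from 10 to 16. The share of all genes called in these refits is not given here. Members called in no comparison over all libraries numbered 11, namely Cyp2a4, Cyp2a12, Cyp2c38, Cyp2c55, Cyp2d10, Cyp2d26, Cyp2j6, Cyp2j9, Cyp2r1, Cyp2s1 and Cyp3a13, of which Cyp2c38, Cyp2c55, Cyp2d10 and Cyp3a13 were called in at least 1 comparison without the 3 libraries.

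**Figure D1:**
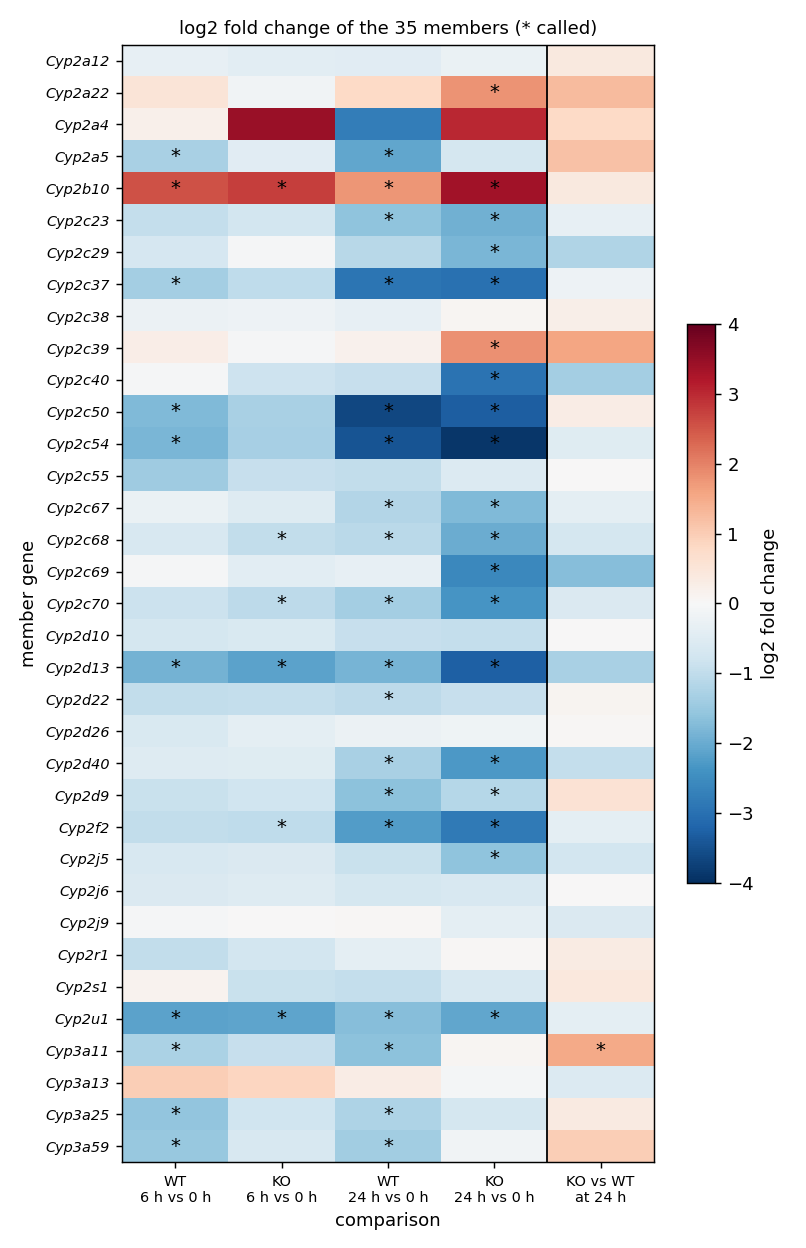
Log2 fold changes of the 35 members (rows) in the 4 changes from 0 hours and between the genotypes at 24 hours (columns), with red for higher, blue for lower and a star for a call. Blue fills most of the 4 left columns, Cyp2b10 is red in all 4 with values from 1.75 to 3.37, and the right column carries 1 star, at Cyp3a11. In that column 11 members without a star changed sign when the 3 libraries that lay apart were left out.

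Cyp2c37, Cyp2c50 and Cyp2c54, which make epoxides of arachidonic and other polyunsaturated fatty acids, fell more than the other members at 24 hours in WT livers, and again in SIRT1intKO livers together with Cyp2d13, over all libraries. Because their sequences are so alike, their sum is given first. It ranged from 460.2 to 1164 CPM (median 942, n = 6) in WT livers at 0 hours and from 72.4 to 449 CPM (median 266, n = 6) at 6 hours, and the 4 livers at 24 hours had 13.5, 47.6, 169 and 122 CPM. The SIRT1intKO livers ranged from 633 to 1289 CPM (median 812, n = 6) at 0 hours. The 5 livers at 6 hours had 215, 444, 447, 549 and 225 CPM, and the sum ranged from 17.6 to 154 CPM (median 118, n = 7) at 24 hours. The ranges of 0 and 24 hours did not overlap in either genotype. By gene, Cyp2c50 changed at 24 hours on the log2 scale by -3.63 ± 0.64 (SE, adjusted p = 9.24e-05 by edgeR) in WT and -3.31 ± 0.50 (SE, adjusted p = 4e-06 by edgeR) in SIRT1intKO livers. For Cyp2c37 it was -2.93 ± 0.53 (SE, adjusted p = 0.000121 by edgeR) and -2.99 ± 0.43 (SE, adjusted p = 1.6e-06 by edgeR), and for Cyp2c54 -3.44 ± 0.73 (SE, adjusted p = 0.000604 by edgeR) and -3.90 ± 0.59 (SE, adjusted p = 3.8e-06 by edgeR). At 6 hours all 3 were called lower in WT livers, with log2 fold changes of -1.36, -1.77 and -1.83, and in SIRT1intKO livers the values were -1.03, -1.29 and -1.33 without a call (edgeR adjusted p = 0.0675, 0.0527 and 0.0782). Without the 3 libraries apart these SIRT1intKO values were -1.04, -1.29 and -1.34 and were called (edgeR adjusted p = 0.0375, 0.0296 and 0.0263). The interaction, which tests the difference between the genotypes in this change, was 0.49 for Cyp2c50 at 6 hours (edgeR adjusted p = 1). WT 24-hour replicates 3 and 4 had the 2 highest sums of their group, and without the 3 libraries apart the WT values at 24 hours were -4.21 for Cyp2c37, -5.14 for Cyp2c50 and -5.48 for Cyp2c54, all called.

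Cyp2c70, the enzyme that makes muricholic acids in the mouse, ranged from 506 to 748 CPM (median 654, n = 6) in WT livers at 0 hours and from 177 to 519 CPM (median 331, n = 6) at 6 hours, and was 139, 361, 248 and 250 CPM at 24 hours. In SIRT1intKO livers it ranged from 616 to 1102 CPM (median 911, n = 6) at 0 hours and from 62.3 to 304 CPM (median 183, n = 7) at 24 hours, with 264, 389.7, 545, 525 and 377 CPM at 6 hours. Every liver at 24 hours lay below every liver at 0 hours of its genotype. The log2 fold changes at 24 hours were -1.35 ± 0.34 (SE, adjusted p = 0.00275 by edgeR) in WT and -2.37 ± 0.29 (SE, adjusted p = 1.29e-07 by edgeR) in SIRT1intKO livers. At 6 hours they were -0.87 in WT livers, which did not pass the fold-change threshold (edgeR adjusted p = 0.0181), and -1.05 in SIRT1intKO livers (edgeR adjusted p = 0.00773). The latter was called and close to the threshold, and its call was lost without SIRT1intKO 0-hour replicate 6 or 6-hour replicate 1. Neither the interaction at 24 hours (-1.02, edgeR adjusted p = 0.307) nor the difference between genotypes at that time (-0.57, edgeR adjusted p = 0.26) was called.

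Cyp2c29, a CAR-inducible epoxygenase of the pericentral zone, split the WT livers at 24 hours. They had 10.2, 118, 797 and 639 CPM, after 589 to 1086 CPM (median 856, n = 6) at 0 hours and 241 to 844 CPM (median 537, n = 6) at 6 hours. The first 2 lay below every liver of the earlier times, and the last 2, which are the libraries that lay apart, lay within the 0-hour range. In SIRT1intKO livers the values ran from 291 to 874 CPM (median 638, n = 6) at 0 hours and from 59.4 to 619 CPM (median 96.6, n = 7) at 24 hours, and replicate 5, which lay apart, held the highest at 24 hours. At 6 hours they were 515, 433, 612, 822 and 497 CPM. The change at 24 hours was called in SIRT1intKO livers, -1.82 ± 0.55 (SE, adjusted p = 0.00643 by edgeR), and was -1.10 ± 0.65 (SE, adjusted p = 0.192 by edgeR) in WT livers. When the 3 libraries apart were left out, it was called in both, at -3.67 in WT (edgeR adjusted p = 1.87e-05) and -2.63 in SIRT1intKO livers (edgeR adjusted p = 8.42e-07).

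Cyp2c39, a retinoic acid hydroxylase, was a low member that rose in SIRT1intKO livers at 24 hours. It ranged from 0.329 to 1.71 CPM (median 0.538, n = 6) at 0 hours and from 0.704 to 3.85 CPM (median 2.66, n = 7) at 24 hours, with 0.77, 1.06, 0.818, 0.243 and 0.479 CPM at 6 hours. In WT livers it ranged from 0.449 to 1.13 CPM (median 0.659, n = 6) at 0 hours and from 0.179 to 1.76 CPM (median 0.771, n = 6) at 6 hours, and was 1.54, 0.171, 0.733 and 0.846 CPM at 24 hours. The log2 fold change at 24 hours was 1.82 ± 0.47 (SE, adjusted p = 0.00189 by edgeR) in SIRT1intKO and 0.16 ± 0.55 (SE, adjusted p = 0.839 by edgeR) in WT livers. The groups of 0 and 24 hours overlapped in both genotypes, and the difference between genotypes at 24 hours, 1.57, was not called (edgeR adjusted p = 0.0697). Over all 13 Cyp2c genes, 3, 2, 7 and 10 were called lower in WT at 6, SIRT1intKO at 6, WT at 24 and SIRT1intKO at 24 hours (all genes 8.4%, 8.7%, 7.4% and 11.1%). Their log2 fold changes at 24 hours ranged from -3.63 to 0.16 in WT and from -3.90 to 1.82 in SIRT1intKO livers. Over all libraries the interaction was called for 0 of the 13 at 6 and at 24 hours.

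Cyp2c23, Cyp2c67 and Cyp2c68 were called lower at 24 hours in both genotypes, at -1.60, -1.16 and -1.09 in WT and -1.92, -1.76 and -1.97 in SIRT1intKO livers. In the fit without the 3 libraries, the WT values were -2.23, -2.12 and -2.32, also called. Cyp2c55 and Cyp2c38 were called in no comparison over all libraries, and they were singled out after their values were seen. Cyp2c55, which oxidizes arachidonic acid, was 0.307, 0.114, 6.6 and 4.88 CPM in WT livers at 24 hours, after 4.36 to 7.03 CPM (median 5.98, n = 6) at 0 hours and 0.392 to 5.32 CPM (median 1.96, n = 6) at 6 hours. The first 2 lay below every WT liver of the earlier times, and the last 2, the libraries apart, lay within the 0-hour range. In SIRT1intKO livers at 24 hours it ranged from 1.02 to 10.8 CPM (median 1.3, n = 7), with replicate 5, the library apart, the highest. Over all libraries its WT change at 24 hours was -0.99 ± 0.73 (SE, adjusted p = 0.307 by edgeR), and without the 3 libraries it was -4.76 (edgeR adjusted p = 0.000142). The difference between genotypes at 24 hours moved from 0.03 (edgeR adjusted p = 0.988) to 3.06 (edgeR adjusted p = 0.0246) for Cyp2c55, and from 0.24 (edgeR adjusted p = 0.771) to 1.79 (edgeR adjusted p = 0.0221) for Cyp2c38.

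Cyp3a11, the main drug-oxidizing Cyp3a enzyme of mouse liver and a target of PXR, fell in WT livers and stood near its 0-hour level in SIRT1intKO livers at 24 hours. WT livers ranged from 3023 to 5183 CPM (median 4173, n = 6) at 0 hours and from 541 to 3259 CPM (median 1897, n = 6) at 6 hours, and had 1143, 351, 2302 and 1627 CPM at 24 hours. SIRT1intKO livers ranged from 2717 to 4786 CPM (median 3551, n = 6) at 0 hours and from 2354 to 6198 CPM (median 4020.1, n = 7) at 24 hours, with 1492, 1494, 2418, 2452 and 1754 CPM at 6 hours. At 24 hours every SIRT1intKO liver lay above every WT liver, by a narrow margin between the lowest of the former (2354 CPM) and the highest of the latter (2302 CPM), which belong to libraries that lay apart. The log2 fold change from 0 hours was -1.27 ± 0.35 (SE, adjusted p = 0.00445 by edgeR) at 6 hours and -1.64 ± 0.40 (SE, adjusted p = 0.00243 by edgeR) at 24 hours in WT livers. In SIRT1intKO livers it was -0.92 at 6 hours, which did not pass the fold-change threshold (edgeR adjusted p = 0.0439), and 0.08 ± 0.33 (SE, adjusted p = 0.857 by edgeR) at 24 hours. With the 3 libraries left out, the WT value at 24 hours was -2.47 (edgeR adjusted p = 0.000243), and it was then also called lower between 6 and 24 hours (-1.22, edgeR adjusted p = 0.0468). From 6 to 24 hours it rose in SIRT1intKO livers by a log2 fold change just over the threshold (1.00, edgeR adjusted p = 0.0347), and Cyp3a11 was the only member called in opposite directions across the comparisons of time points. The rise was no longer called without any 1 of SIRT1intKO 24-hour replicates 1, 3 and 4, SIRT1intKO 6-hour replicates 1, 2 and 5, WT 24-hour replicate 4 and WT 6-hour replicate 6, with values down to 0.84.

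Cyp3a11 was also the only member called between the genotypes, with 0 called at 0 and at 6 hours (all genes 0% and 0% higher, 0% and 0% lower) and 1 at 24 hours (all genes 1.38% higher and 1.3% lower). The counts of members with an unadjusted p under 0.05 were 1, 1 and 10, where 1.07%, 6.52% and 23.4% of all genes had one, and DESeq2 called 0, 0 and 2. At 24 hours Cyp3a11 was higher in SIRT1intKO livers by 1.5 ± 0.40 (SE, adjusted p = 0.0237 by edgeR). The interaction for Cyp3a11 at 24 hours was 1.72 (SE 0.52) and was not called (edgeR adjusted p = 0.175, unadjusted p = 0.00214). The interaction was called for 0 members at 6 hours (all genes 0% higher, 0% lower) and for 0 at 24 hours (all genes 0.00668% higher, 0% lower), with 1 and 8 members at an unadjusted p under 0.05 (all genes 3.04% and 12.7%) and 0 called by DESeq2 at either time. Without the 3 libraries that lay apart, Cyp3a11 differed between genotypes by 2.47 (edgeR adjusted p = 0.00188) and its interaction was called at 2.68 (edgeR adjusted p = 0.00808). That fit called 5 members between genotypes, all higher in SIRT1intKO livers (Cyp2c38, Cyp2c55, Cyp3a11, Cyp3a25 and Cyp3a59). It called 3 for the interaction (Cyp2c55, Cyp3a11 and Cyp3a59). Of all genes, 8.18% and 4.03% were called in these comparisons, counting higher and lower calls together. Between the genotypes at 24 hours, 11 members without a call had estimates of the opposite sign in that fit, among them Cyp2c29 (-1.20 to 0.58) and Cyp2f2 (-0.38 to 0.75), and no direction is read from them. The call of Cyp3a11 between genotypes was lost without WT 24-hour replicate 2 (1.18, edgeR adjusted p = 0.065) and when the 2 groups were fitted alone (1.5, edgeR adjusted p = 0.258). The count of members called between genotypes was 8 without SIRT1intKO replicate 5, 5 without WT replicate 1 and 2 without WT replicate 2 of that time. The share of all genes called in these refits is not given here, so the counts are not read as particular to the members. Of all genes, 402 were called in this comparison over all libraries and 1273 without the 3 libraries.

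Marker genes of other cells also differed between the groups. The neutrophil genes S100a8, S100a9, Ly6g, Mmp8, Retnlg and Csf3r summed at 24 hours to 7.32 to 108 CPM in WT and 22.1 to 948 CPM in SIRT1intKO livers, after 6.67 to 21.9 CPM and 4.21 to 19.9 CPM at 0 hours. The libraries apart held the 2 lowest WT sums, 13.4 and 7.32 CPM, and the lowest SIRT1intKO sum, and without them the ranges were 88.1 to 107.6 CPM (median 97.8, n = 2) and 58.1 to 948.1 CPM (median 105.9, n = 6). Of the 5 that passed the count filter (all but Ly6g, which was at 0 in every SIRT1intKO liver at 0 hours), 3 and 5 were called higher at 24 than at 0 hours in WT and SIRT1intKO livers (all genes 8.32% and 11.9%). Between the genotypes at 24 hours, 1 (Csf3r) was called higher in SIRT1intKO livers (all genes 1.38%). The 7 hepatocyte genes summed at 24 hours to 42727 to 51397 CPM and 47249 to 86127 CPM, after 71789 to 82499.5 CPM and 63534 to 88774 CPM at 0 hours, and 0 of them were called between the genotypes, with a median of 0.11. Alb, the serum albumin gene, differed by 0.85 on the log2 scale (edgeR adjusted p = 0.0278), which is below the fold-change threshold, and by 1.13 with a call (edgeR adjusted p = 0.0106) without the libraries apart. The part of these shifts in the levels of Cyp3a11 and the other members was not tested.

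**Figure D2:**
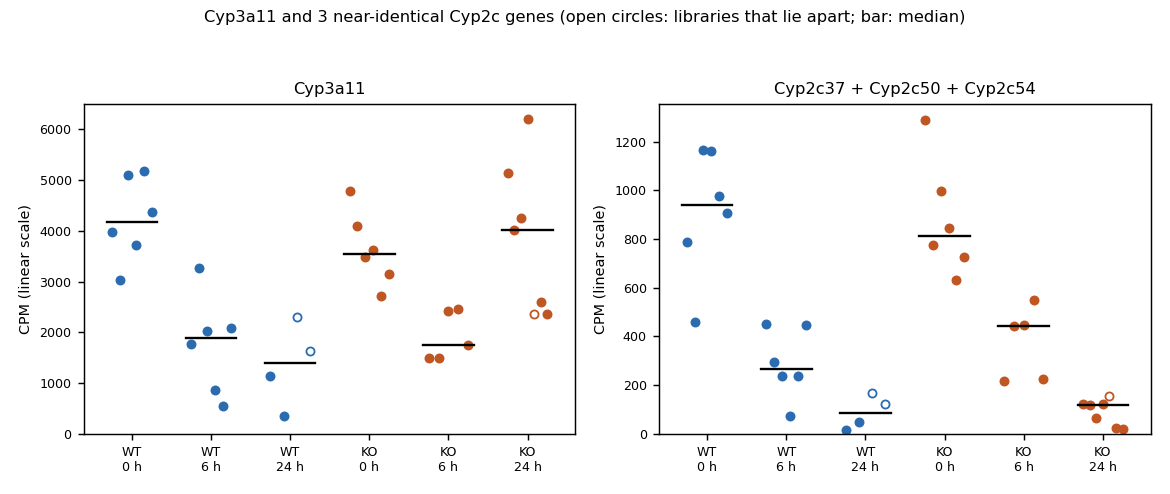
Level of Cyp3a11 (left) and summed level of Cyp2c37, Cyp2c50 and Cyp2c54 (right) in every library, in CPM on linear axes from 0, by genotype (KO is SIRT1intKO) and hours after PHx. Bars are medians and open circles the 3 libraries that lay apart. At 24 hours the SIRT1intKO livers lie between 2354 and 6198 CPM for Cyp3a11, above the 4 WT livers, while the 3 Cyp2c genes are low in both genotypes.

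Cyp3a25 ranged from 247 to 622 CPM (median 393, n = 6) in WT livers at 0 hours and from 94.4 to 217 CPM (median 136, n = 6) at 6 hours, which is -1.58 ± 0.27 (SE, adjusted p = 2.87e-05 by edgeR). At 24 hours the 4 livers had 135, 86.8, 239 and 245 CPM, a change of -1.25 ± 0.31 (SE, adjusted p = 0.00232 by edgeR) from 0 hours, and of -1.89 without the libraries apart. SIRT1intKO livers ranged from 247 to 509.6 CPM (median 343, n = 6) at 0 hours, was 170.2, 235, 343, 167 and 147 CPM at 6 hours and ranged from 144 to 306 CPM (median 227, n = 7) at 24 hours. There the log2 fold changes of -0.80 and -0.69 had edgeR adjusted p of 0.0235 and 0.0225 but did not pass the fold-change threshold, and the interactions were 0.78 and 0.55 (edgeR adjusted p = 1 and 0.564). Cyp3a59, with 5.61% of its 100-base stretches in another Cyp gene, most of all Cyp3a25, was called in the same comparisons from 0 hours as Cyp3a25. Cyp3a13, singled out after its values were seen, was the only Cyp3a gene with positive estimates at 6 hours in both genotypes, 0.98 and 0.86 (edgeR adjusted p = 0.000251 and 0.00152), just short of the fold-change threshold. When the 3 libraries apart were left out, it was called higher in WT livers at 6 hours (1.00, edgeR adjusted p = 4.7e-05) and lower from 6 to 24 hours (-1.22, edgeR adjusted p = 0.00091). Every WT liver at 6 hours (266 to 403 CPM) lay above every WT liver at 0 hours (136 to 179 CPM).

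Cyp2b10, the classical target gene of CAR, was the member that rose in every change from 0 hours. WT livers ranged from 0.0641 to 2.88 CPM (median 2.11, n = 6) at 0 hours and from 1.31 to 26.5 CPM (median 5.58, n = 6) at 6 hours, and had 3.07, 4.46, 6.28 and 8.76 CPM at 24 hours. SIRT1intKO livers ranged from 0.0655 to 2.04 CPM (median 0.292, n = 6) at 0 hours. They had 6.03, 5.35, 4.47, 3.58 and 4.79 CPM at 6 hours and ranged from 2.87 to 14.9 CPM (median 7.12, n = 7) at 24 hours. At both times every SIRT1intKO liver lay above every one at 0 hours, and in WT livers this held at 24 hours and not at 6. The 0-hour values are low, with 66 counts over the 6 SIRT1intKO and 172 over the 6 WT livers. On the log2 scale it rose by 2.56 ± 0.64 (SE, adjusted p = 0.00193 by edgeR) and 2.77 ± 0.71 (SE, adjusted p = 0.00253 by edgeR) at 6 hours in WT and SIRT1intKO livers. At 24 hours they were 1.75 ± 0.68 (SE, adjusted p = 0.0437 by edgeR) and 3.37 ± 0.68 (SE, adjusted p = 0.000157 by edgeR). The WT call at 24 hours was lost without any 1 of WT 0-hour replicates 1, 4 and 6 and WT 24-hour replicates 2, 3 and 4, without the 3 libraries apart (1.20, edgeR adjusted p = 0.246), and when the 2 groups were fitted alone, and the interaction at 24 hours was 1.62 (edgeR adjusted p = 0.486).

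Among the Cyp2a genes, Cyp2a5, the coumarin hydroxylase, fell in WT livers. It ranged from 132 to 239 CPM (median 189, n = 6) at 0 hours and from 32.3 to 91 CPM (median 83.7, n = 6) at 6 hours, and was 13.5, 98.4, 21.4 and 42.9 CPM at 24 hours. All WT livers after PHx lay below all WT livers at 0 hours. Its changes were -1.31 ± 0.45 (SE, adjusted p = 0.0218 by edgeR) and -2.08 ± 0.54 (SE, adjusted p = 0.0036 by edgeR). In SIRT1intKO livers Cyp2a5 ranged from 127 to 214 CPM (median 156, n = 6) at 0 hours, was 65.5, 70.7, 249, 147 and 57.8 CPM at 6 hours and ranged from 30.8 to 244 CPM (median 67.1, n = 7) at 24 hours, overlapping at both times. Neither change was called there (-0.45 and -0.71, edgeR adjusted p = 0.465 and 0.164), with interactions of 0.85 and 1.36 (edgeR adjusted p = 1 and 0.39). Cyp2a12, a steroid hydroxylase, was called in no comparison. It ranged from 354 to 524 CPM (median 508, n = 6) and from 481 to 615 CPM (median 557, n = 6) at 0 hours in WT and SIRT1intKO livers. At 24 hours WT livers had 353, 297, 388 and 376 CPM and SIRT1intKO livers ranged from 329 to 636 CPM (median 488, n = 7). Cyp2a22, which shares 6.36% of its 100-base stretches with another Cyp gene, most of all Cyp2a12, was near the limit of detection. It was called higher in SIRT1intKO livers at 24 hours, 1.79 ± 0.53 (SE, adjusted p = 0.00542 by edgeR), on 109 counts in 7 livers against 20 in 6 at 0 hours.

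Of the 6 Cyp2d genes, 1 and 1 were called lower at 6 hours and 4 and 3 at 24 hours in WT and SIRT1intKO livers, and 0 higher. The shares of all genes called lower were 8.4% and 8.7% at 6 hours and 7.4% and 11.1% at 24 hours. Cyp2d13 ranged from 192 to 271 CPM (median 223, n = 6) in WT and from 181 to 339.6 CPM (median 236, n = 6) in SIRT1intKO livers at 0 hours. At 6 hours it ranged from 28.6 to 94.4 CPM (median 61, n = 6) in WT livers and was 102, 41.4, 36, 58.6 and 38.8 CPM in SIRT1intKO livers. At 24 hours it was 10.6, 21.4, 107 and 108 CPM in WT livers and ranged from 12 to 74.6 CPM (median 14, n = 7) in SIRT1intKO livers. No liver after PHx reached the 0-hour range of its genotype, and the highest 24-hour values belonged to the libraries that lay apart. The log2 fold changes at 24 hours were -1.85 ± 0.53 (SE, adjusted p = 0.0074 by edgeR) in WT and -3.27 ± 0.45 (SE, adjusted p = 1.04e-06 by edgeR) in SIRT1intKO livers, and at 6 hours -1.89 and -2.13. The WT value at 24 hours was -3.77 and the SIRT1intKO value -3.81 without the libraries apart.

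Cyp2d9, a male-biased testosterone hydroxylase, ranged from 608 to 1406 CPM (median 1286, n = 6) in WT livers at 0 hours and was 275, 368, 496 and 394 CPM at 24 hours, which is -1.64 ± 0.37 (SE, adjusted p = 0.00102 by edgeR). The SIRT1intKO livers ran from 1023 to 1398 CPM (median 1309.7, n = 6) at 0 hours and from 186 to 1402 CPM (median 509, n = 7) at 24 hours, a change of -1.14 ± 0.30 (SE, adjusted p = 0.00214 by edgeR). In these livers the 24-hour range ran from below to as high as the 0-hour range, with replicate 1 the highest, and leaving out replicate 6 moved the value to -0.95, short of the fold-change threshold. At 6 hours the values were -0.89 and -0.80 without a call. Cyp2d26 was called in no comparison, with log2 fold changes of -0.62 and -0.39 at 6 hours and -0.22 and -0.18 at 24 hours.

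Cyp2f2, a periportal enzyme known for activating naphthalene, fell further at 24 than at 6 hours. It ranged from 822 to 1379.7 CPM (median 1237, n = 6) in WT livers at 0 hours and from 379.6 to 793 CPM (median 593, n = 6) at 6 hours, and was 67.9, 139, 393 and 413 CPM at 24 hours. In SIRT1intKO livers it ranged from 1018 to 1935 CPM (median 1313, n = 6) at 0 hours, was 462, 714, 792, 825 and 624 CPM at 6 hours and ranged from 122 to 331 CPM (median 188, n = 7) at 24 hours, with no overlap between any 2 of the 3 times. The log2 fold changes at 24 hours against 0 hours were -2.22 ± 0.36 (SE, adjusted p = 3.04e-05 by edgeR) in WT and -2.82 ± 0.30 (SE, adjusted p = 1.47e-08 by edgeR) in SIRT1intKO livers. At 6 hours they were -0.99, not called, and -1.01, called and close to the threshold, a call that was lost without SIRT1intKO 0-hour replicate 2 or 3 or 6-hour replicate 1. From 6 to 24 hours they were -1.23 and -1.81, called in both. In the fit without the 3 libraries, the WT values at 24 hours were -3.48 against 0 hours and -2.51 against 6 hours.

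Cyp2j5, another epoxygenase of arachidonic acid, ranged from 442 to 581 CPM (median 500.1, n = 6) in WT livers at 0 hours and from 264 to 397 CPM (median 330.2, n = 6) at 6 hours. At 24 hours the 4 livers had 128, 52.4, 443 and 480.2 CPM, so the first 2 lay below, and the 2 libraries apart above, every liver at 6 hours. Levels in SIRT1intKO livers ranged from 394 to 600.2 CPM (median 531, n = 6) at 0 hours, was 361, 296, 348, 366 and 322 CPM at 6 hours and ranged from 99.9 to 413 CPM (median 122, n = 7) at 24 hours, where all but replicate 5 lay below every liver of the earlier times. The 24-hour change was -1.60 ± 0.32 (SE, adjusted p = 0.000156 by edgeR) in SIRT1intKO and -0.88 ± 0.38 (SE, adjusted p = 0.0714 by edgeR) in WT livers, and without the 3 libraries -1.97 and -2.46 (edgeR adjusted p = 5.99e-11 and 1.14e-08). Cyp2j6 was called in no comparison, with values from -0.71 to -0.51 over the 4 changes from 0 hours.

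Cyp2u1, a hydroxylase of long-chain fatty acids, ranged from 31.1 to 43.1 CPM (median 42.7, n = 6) in WT and from 29.5 to 56.9 CPM (median 37.1, n = 6) in SIRT1intKO livers at 0 hours. At 6 hours it ranged from 5.67 to 13.4 CPM (median 8.85, n = 6) in WT livers and was 12.8, 9.58, 10.4, 6.01 and 7.13 CPM in SIRT1intKO livers. At 24 hours it was 3.57, 8.46, 16.9 and 19.9 CPM in WT livers and ranged from 4.77 to 13.1 CPM (median 9.47, n = 7) in SIRT1intKO livers. No liver after PHx reached the 0-hour range. Its changes were -2.13 ± 0.28 (SE, adjusted p = 7.53e-07 by edgeR) and -2.11 ± 0.30 (SE, adjusted p = 2.87e-06 by edgeR) at 6 hours in WT and SIRT1intKO livers, and -1.69 and -2.08 at 24 hours, where the WT value was -2.68 without the libraries apart. Cyp2r1, which carries out the first hydroxylation of vitamin D in the liver, ranged from 9.35 to 11.7 CPM (median 10.3, n = 6) at 0 hours and from 2.33 to 10.1 CPM (median 5.34, n = 6) at 6 hours in WT livers, and was 9.04, 4.57, 8.38 and 10.3 CPM at 24 hours. Its value at 6 hours, -0.97, had an edgeR adjusted p of 0.00161 but did not pass the fold-change threshold, and it was -0.74 in SIRT1intKO livers (edgeR adjusted p = 0.0184). At 24 hours the values were -0.38 and 0.06. Cyp2s1, an enzyme of epithelia, stayed below 1 CPM in every liver and was called in no comparison.

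**Figure D3:**
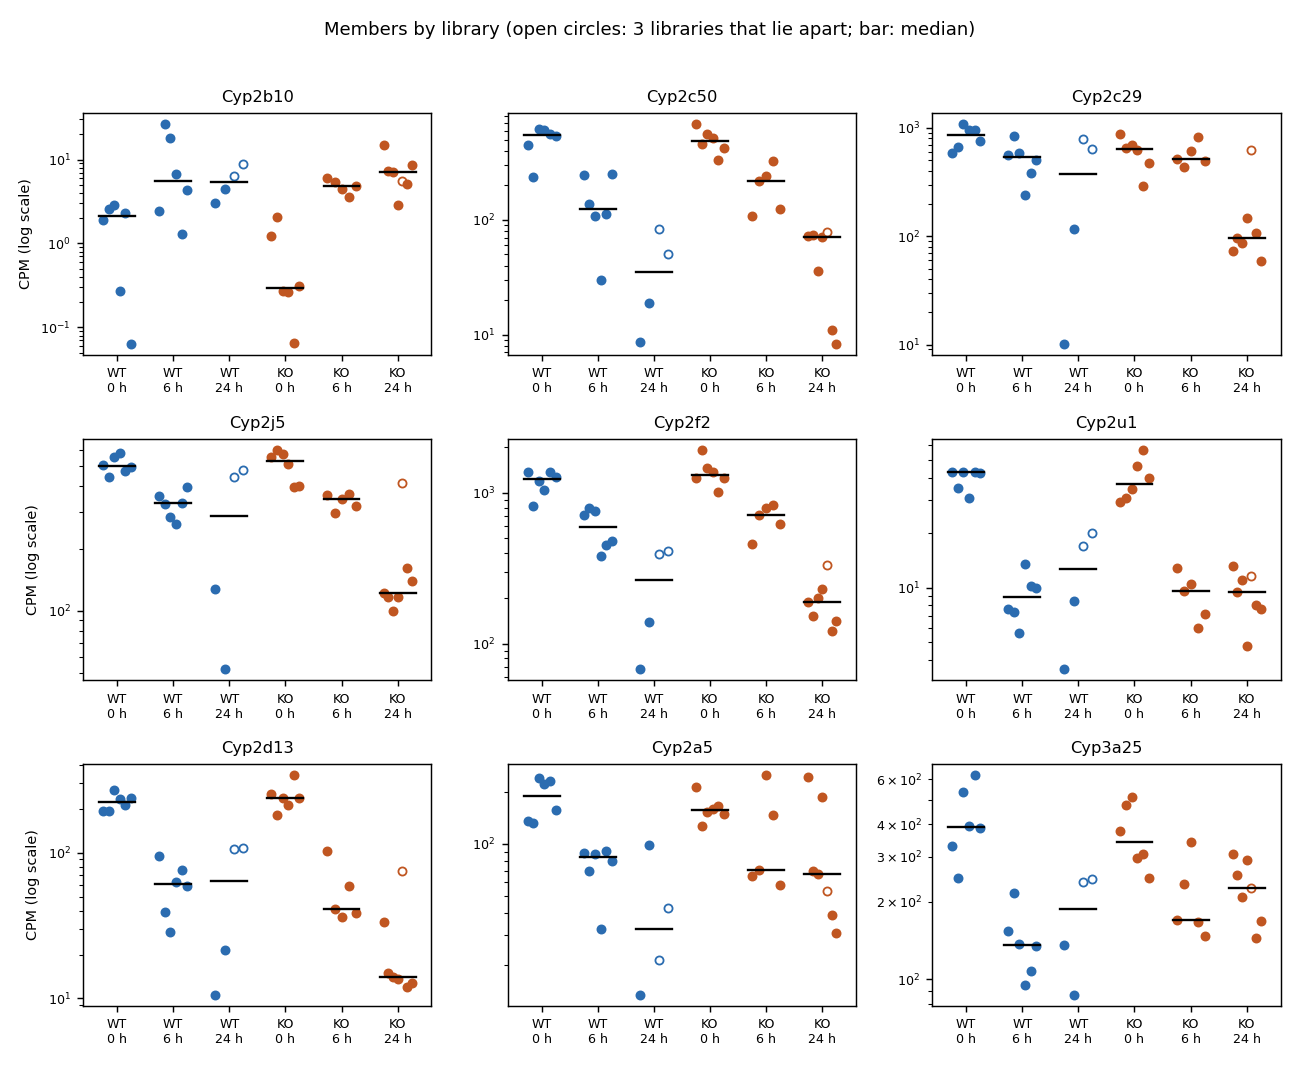
Levels of 9 members in every library, in CPM on log axes, by genotype (KO is SIRT1intKO) and hours after PHx, with bars at the medians and open circles for the 3 libraries that lay apart. Cyp2b10 rises from medians of 2.11 and 0.292 CPM at 0 hours, Cyp2c50, Cyp2f2, Cyp2u1 and Cyp2d13 fall in both genotypes, and the open circles of Cyp2c29 and Cyp2j5 sit high among the 24-hour livers.

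Among the members, 6 are known from the zone around the central vein, Cyp2a5, Cyp2c29, Cyp2c37, Cyp2c50, Cyp2c54 and Cyp3a11, while Cyp2f2 is known from the zone around the portal vein. Of the 6, 5, 0, 5 and 4 were called lower in WT at 6, SIRT1intKO at 6, WT at 24 and SIRT1intKO at 24 hours (all genes 8.4%, 8.7%, 7.4% and 11.1%). Without the 3 libraries apart the counts were 5, 3, 6 and 4. That fit called 16.4%, 17.4%, 30.9% and 26% of all genes, higher and lower together. At 6 hours the 6 estimates in SIRT1intKO livers ranged from -1.33 to -0.06, and 0 interactions were called (0.33 to 0.85, all genes 0%). The median log2 fold changes of the 6 over all libraries were -1.34, -0.98, -2.50 and -2.41. The corresponding values of Cyp2f2 were -0.99, -1.01, -2.22 and -2.82, called in all but the first. Members of both zones were thus called lower in each genotype at 24 hours, and in neither at 6 hours over all libraries. Of 9 genes known to be higher in female than in male liver, 3 were members (Cyp2a4, Cyp2c40 and Cyp2c69), and the other 6 were below the count filter in these male livers. Cyp2c40 and Cyp2c69 were called lower in SIRT1intKO livers at 24 hours, -2.95 ± 0.63 (SE, adjusted p = 0.000288 by edgeR) and -2.57 ± 0.84 (SE, adjusted p = 0.0122 by edgeR). With the 3 libraries left out, these were -3.48 and -4.47. In WT livers the values were -0.91 and -0.34 without a call, and the interactions of -2.04 and -2.23 were not called either (edgeR adjusted p = 0.344 and 0.457). Cyp2a4, a steroid hydroxylase, was concentrated in 3 livers. It stood at 17.3 CPM in WT 0-hour replicate 2, 19.3 CPM in WT 6-hour replicate 2 and 4.25 CPM in SIRT1intKO 6-hour replicate 5, and at most at 1.67 CPM in every other liver. Its values of 0.19, 3.45, -2.77 and 3.03 in the 4 changes from 0 hours were not called (edgeR adjusted p from 0.152 to 0.923). WT 0-hour replicate 2 also had the highest Cyp2c40 and Cyp2c69 and the lowest Cyp2d9 and Cyp2d40 of its group, a pattern noticed after the values were seen.

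Por and Alas1, partners of the P450 enzymes, rose at 6 hours. Of 14 genes for electron donors and haem turnover, 2 and 3 were called higher and 2 and 1 lower at 6 hours in WT and SIRT1intKO livers. The shares of all genes there were 7.17% and 7.86% higher and 8.4% and 8.7% lower. At 24 hours 2 and 2 were called higher and 1 and 2 lower (all genes 8.32% and 11.9%, 7.4% and 11.1%). Hmox1, which breaks down haem, was among the higher calls in SIRT1intKO livers at 6 hours and in both genotypes at 24 hours. The counts are not read as particular to the list. Without the 3 libraries apart, the lower calls at 24 hours were 5 and 3. The median values of the list were -0.52, -0.41, -0.39 and -0.46 on the log2 scale. Por, the electron donor of all these enzymes, ranged from 158 to 252 CPM (median 192, n = 6) in WT livers at 0 hours and from 618 to 1025 CPM (median 810.3, n = 6) at 6 hours, and was 260.1, 526, 485 and 356 CPM at 24 hours. In SIRT1intKO livers it ranged from 125 to 267 CPM (median 188, n = 6) at 0 hours, was 769, 764, 873, 673 and 819.6 CPM at 6 hours and ranged from 293 to 518 CPM (median 400.5, n = 7) at 24 hours. No liver after PHx overlapped the 0-hour range of its genotype. Its log2 fold changes were 2.06 ± 0.18 (SE, adjusted p = 5.59e-10 by edgeR) and 2.03 ± 0.19 (SE, adjusted p = 1.7e-09 by edgeR) at 6 hours and 1.04 and 1.06 at 24 hours, called in all 4. Alas1, the rate-limiting enzyme of haem synthesis, rose at 6 hours by 2.21 in WT and 1.74 in SIRT1intKO livers (edgeR adjusted p = 0.000214 and 0.00273), and at 24 hours it was at 0.74 and 0.13 without a call. Cyb5b, a cytochrome b5 of the mitochondrial outer membrane, and Cyb5r3, a cytochrome b5 reductase, were called lower in WT livers at 6 hours (-1.39 and -1.20). Cyb5a, the cytochrome b5 of the endoplasmic reticulum, was the only gene of this list called between the genotypes over all libraries, higher in SIRT1intKO livers at 24 hours by 1.10 ± 0.29 (SE, adjusted p = 0.0251 by edgeR), with 465, 330.2, 433 and 393 CPM in WT livers against 437 to 1904 CPM (median 685, n = 7) in SIRT1intKO livers, ranges that overlapped. When the 3 libraries apart were left out, Uros, of haem synthesis, was called higher too (1.15, edgeR adjusted p = 0.00121).

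Of 28 receptors and transcription factors known to act on these genes, 3 and 2 were called higher and 5 and 6 lower at 6 hours in WT and SIRT1intKO livers. The shares of all genes were 7.17% and 7.86% higher and 8.4% and 8.7% lower. At 24 hours 2 and 2 were called higher and 1 and 8 lower (all genes 8.32% and 11.9%, 7.4% and 11.1%). Without the 3 libraries apart, 3 and 3 were called higher and 5 and 8 lower at 24 hours. These counts are not read as particular to the list. The median values of the 28 were -0.12 and -0.08 at 6 hours and -0.17 and -0.37 at 24 hours. Bcl6, a repressor in growth hormone signalling, was called lower in all 4 changes, at -2.09, -2.25, -2.56 and -2.0. Nr1i3, which encodes CAR, fell at 6 hours while its target Cyp2b10 rose. It ranged from 45 to 171 CPM (median 131, n = 6) at 0 hours and from 18.3 to 107 CPM (median 48.8, n = 6) at 6 hours in WT livers, which is -1.06 ± 0.42 (SE, adjusted p = 0.0461 by edgeR), and it was -1.59 in SIRT1intKO livers (edgeR adjusted p = 0.00652). At 24 hours the values were -1.21 and -0.72 without a call, and the WT value was called without the 3 libraries (-1.82, edgeR adjusted p = 0.0243). Nr1i2, which encodes PXR, was called in none of the 4 changes, with values of -0.02, 0.67, -0.09 and 0.41, and its difference between genotypes at 24 hours was 0.42 (edgeR adjusted p = 0.323). Hnf4a, the hepatocyte factor whose site was searched in the promoters, was not called either, with values of 0.16 and 0.31 at 6 hours and -0.14 and -0.30 at 24 hours. Dbp, a D-box factor of the circadian clock, rose at 6 hours by 4.39 in WT and 5.07 in SIRT1intKO livers (edgeR adjusted p = 2.44e-07 and 5.48e-08). The hour of day at which livers were taken is not given in the sources used here. Between the genotypes at 24 hours, 4 of the 28 were called lower in SIRT1intKO livers, Cebpa, Cux2, Nfil3 and Onecut1, and 0 higher (all genes 1.3% and 1.38%). In the fit without the 3 libraries, the call of Onecut1 was lost (-1.59, edgeR adjusted p = 0.0995) and that of Cebpa stayed (-1.20). Cebpa, which encodes C/EBP alpha, ranged from 29.2 to 135 CPM (median 56.7, n = 7) in SIRT1intKO livers and was 137, 109, 221 and 205 CPM in WT livers, a difference of -1.37 ± 0.30 (SE, adjusted p = 0.0103 by edgeR) between overlapping ranges.

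**Figure D4:**
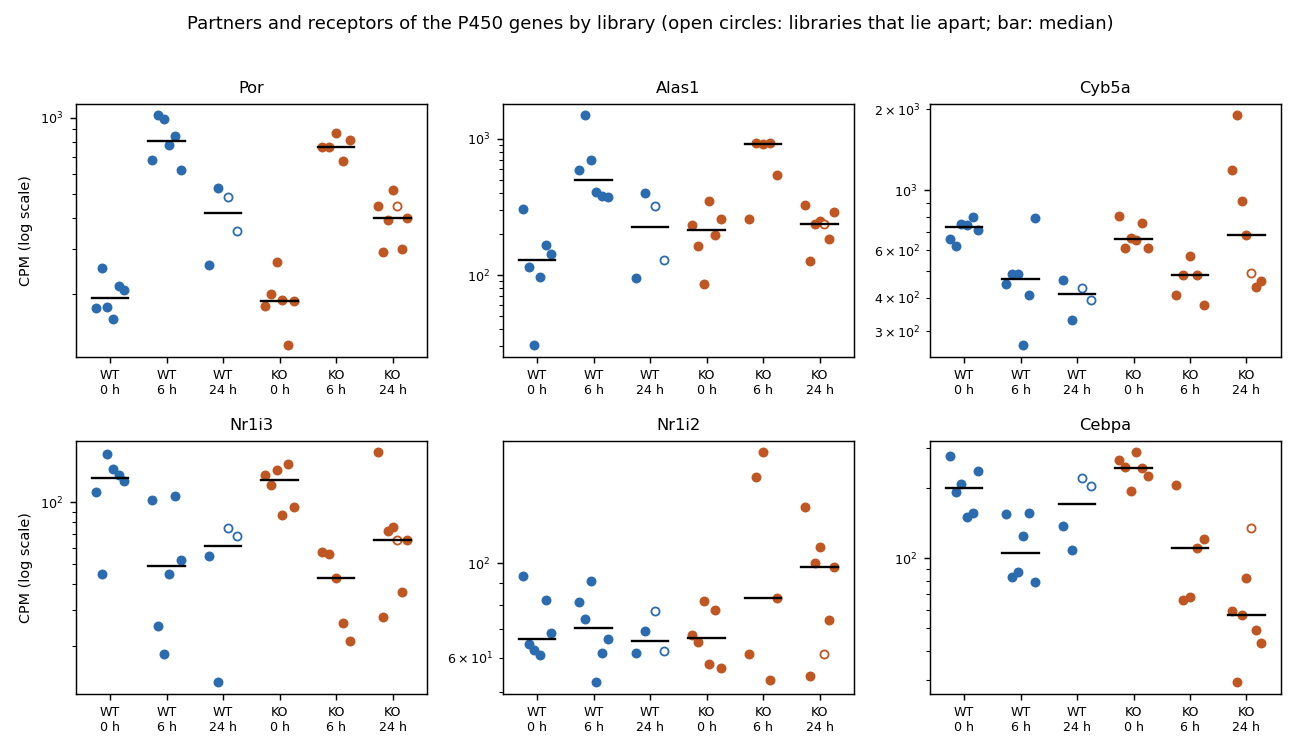
Levels of Por, Alas1, Cyb5a, Nr1i3 (CAR), Nr1i2 (PXR) and Cebpa in every library, in CPM on log axes, by genotype (KO is SIRT1intKO) and hours after PHx, with bars at the medians and open circles for the 3 libraries that lay apart. Por peaks at 6 hours, with medians of 810.3 CPM in WT and 769 CPM in SIRT1intKO livers. Nr1i3 is lower at 6 hours than in untreated livers, in WT and SIRT1intKO alike. Cebpa is lower in SIRT1intKO livers at 24 hours, with a median of 56.7 against 171 CPM.

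Markers of the other cells that a piece of liver can hold were read beside these results. The shares of all genes called at 24 against 0 hours were 8.32% and 11.9% higher and 7.4% and 11.1% lower in WT and SIRT1intKO livers. Between the genotypes at 24 hours they were 1.38% higher and 1.3% lower. At 24 hours against 0 hours, 4 of 6 Kupffer cell genes were called lower in WT and 1 lower and 1 higher in SIRT1intKO livers. Of 5 genes of the sinusoidal endothelium, 3 were called lower in both genotypes, with 1 (Lyve1) higher in SIRT1intKO livers. Of 5 stellate cell genes 1 and 2 were called lower, and of 5 cholangiocyte genes 3 and 3 higher. Of 5 red blood cell genes 1 and 1 were called lower and 0 and 1 higher. Of 5 lymphocyte genes 1, Cd79a, passed the filter and was called lower in both. Of 5 enterocyte genes 1, Fabp2, passed and was called higher in SIRT1intKO livers. Between the genotypes at 24 hours, Marco, of the Kupffer cell list, and Fabp2 were called higher in SIRT1intKO livers (2.28 and 1.46), and 0 genes of the endothelial, stellate, cholangiocyte, red blood cell and lymphocyte lists were called. With the 3 libraries left out, 2 Kupffer cell and 2 endothelial genes were called higher and 1 cholangiocyte gene lower in SIRT1intKO livers, and in WT livers 3 stellate cell genes were called lower and 1 endothelial gene higher at 24 than at 0 hours. Their part in the levels of the members was not tested.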

How the data were processed

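Stranded polyA RNA of 34 liver samples was sequenced as paired 100-base reads. The authors quantified transcripts with Salmon after STAR alignment in the nf-core/rnaseq pipeline, and the submitters' processing notes name GRCm39. They deposited expected counts per gene, of which 4.97% of values were not whole. Counts were rounded before testing, and 1 further column of values was not used. Genes were tested with edgeR 4.0.16 (quasi-likelihood, TMM, filterByExpr) in R 4.3.3, with 1 mean per genotype and time over all libraries, and p-values were Benjamini-Hochberg adjusted over 14980 genes. DESeq2 1.42.0, other scalings, filters and sets of libraries, a replicate block and the omission of each library were alternatives. The fit was tested on simulated data. In 1255 symbols of the table a missing letter x was restored.

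The rule for members shown one by one took the 2 with the highest mean level in each of the 5 subfamilies with several members and the 1 member of each other subfamily, those called between genotypes or in opposite directions, and for each change from 0 hours the 3 highest and 3 lowest called. Any other member named in the text, Cyp2c23, Cyp2c67, Cyp2c68, Cyp2c40 and Cyp2c69 among them, falls outside this rule. The members, this rule and the gene lists (zonal and female-biased members, partners, receptors, cell markers) were chosen with earlier results of these data known. Replicates are labelled biological replicates, and comparisons from 0 hours share their control livers with each other. Standard errors were derived from each fold change and its F value. Motifs were searched in RefSeq promoters and coding sequences compared in GENCODE transcripts, both of an earlier mouse build than the one named for the counts.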

Additional observations from a re-analysis of the deposited data

Results flagged for a closer look

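Among 126 groups of 4 to 7 livers tested for a liver far from the rest of its group (Dixon's test), 11 held one, where chance gives about 5%. SIRT1intKO 24-hour replicate 5, one of the libraries that lay apart, accounts for 4 of them. It had 619.0 CPM of Cyp2c29 with the next at 146.4, 27.9 CPM of Cyp2c54 with the next at 11.9, 74.6 CPM of Cyp2d13 with the next at 33.7, and 413.0 CPM of Cyp2j5 with the next at 161.4. SIRT1intKO 24-hour replicate 2 was high in Cyp2j6 (76.4 CPM, next 48.4) and in Cyp2r1 (14.6 CPM, next 10.7). WT 0-hour replicate 2 was low in Cyp2d26 (438.7 CPM, next 602.3) and in Cyp2d9 (607.9 CPM, next 1204.6). WT 6-hour replicate 4 was low in Cyp2a5 (32.3 CPM, next 70.1), and WT 6-hour replicate 6 was high in Cyp2j6 (75.3 CPM, next 53.6). SIRT1intKO 0-hour replicate 3 was high in Cyp2c39 (1.71 CPM, next 0.71).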

How the results depend on the processing

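Among the members chosen by the rule above, no called value changed direction under any alternative. Values without a call did: without the 3 libraries that lay apart, the estimates of 11 members between genotypes at 24 hours, 12 in the interaction at 24 hours, 6 between 6 and 24 hours in WT livers and 2 in WT livers at 24 hours changed sign. With the adjusted p alone, 21 members were called in WT and 15 in SIRT1intKO livers at 6 hours, against 10 and 6. With only the groups compared in the fit, 0 were called in WT livers between 6 and 24 hours and 0 between genotypes at 24 hours, and DESeq2 called 2 there. Without the 3 libraries, 15 were called in WT livers between 6 and 24 hours, 5 between genotypes at 24 hours and 3 in the interaction at 24 hours. Leaving out 1 library at a time gave 10 to 16 calls in WT livers at 6 hours (16 without WT 0-hour replicate 2). It gave 0 to 4 in WT livers between 6 and 24 hours (0 without WT 24-hour replicate 1 or 2). Between genotypes at 24 hours it gave 1 to 8 (8 without SIRT1intKO 24-hour replicate 5). The shares of all genes called in these refits, or with the adjusted p alone, are not given. These counts are therefore not read as particular to the members. Without TMM the median summed Cyp2a level of WT livers at 6 hours was 405.2 in place of 467.6 CPM, the 1 sum that moved by more than its spread. The causes were not tested. Of the called values of the members chosen by the rule above, 40 lost their call and 1732 kept it when 1 library was left out. Called values of other members named in the text, such as Cyp2c68 and Cyp2c40, are not among them. Refits in which a gene did not pass the count filter are not counted. Among the 53 called values of these members, the calls lost numbered 2 with every counted gene, 1 with upper-quartile scaling and 1 without the libraries apart. With only the groups compared 6 were lost and 45 kept, and the rest were not tested there. For these 53 values, 0 were lost with the replicate block, DESeq2 or the other filter and scaling. Over all 35 members, 11, 6, 18, 19, 3 and 13 were called in the 6 comparisons of time points with the replicate number as a block. Without it they were 10, 6, 18, 19, 3 and 14. Between genotypes at 24 hours, 1 was called with the block. Of 76 same-numbered pairs across groups, 6 had a correlation over 0.1 (median -0.004), against 56 of 403 other-numbered pairs (median 0.006). Whether the numbers mark any pairing of the livers cannot be told from this. Depth limits the members at the lowest levels, Cyp2a22, Cyp2s1 and Cyp2c39, and the WT 24-hour group of 4 limits every comparison that uses it.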
